A study of Mus musculus with 7 samples.

Results

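The genes described here are 39 mouse genes of the interferon response and of class I antigen presentation. They were picked by symbol, by a rule that uses no measured value, although earlier results of these data were known when the list was made. All 39 were found among the 26607 genes listed in the data. Of these, 37 were above 0 in at least 1 library, against 19144 genes in all. By role the list holds 4 RNA sensors or their activators, 9 transcription factors and partners, 15 antiviral effectors and modifiers, 5 interferon-inducible GTPases and 6 antigen presentation genes.

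The samples were C2C12 myotubes, that is, muscle fibres formed in culture by differentiation of C2C12, an established line of mouse myoblasts. The control group, 3 libraries numbered 1, 3 and 4, was left unstimulated. The EPS group, 4 libraries numbered 1 to 4, received electrical pulse stimulation (EPS) for 24 h at 1 Hz, starting 3 days after differentiation began, and rested for 1 h before collection. EPS makes myotubes contract and serves as a model of exercise in a dish. The comparison asks what EPS changes in muscle transcripts in the absence of other organs, immune cells included. No group separates contraction from other effects of the pulses. All libraries come from the same cell line, and nothing states that they come from separate cultures, so the p-values measure the spread between these samples, which may be technical.

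Cells that detect viral RNA or foreign DNA make interferons, which bind receptors on the same and neighbouring cells. The receptors activate STAT proteins that, together with interferon regulatory factors (IRFs), switch on a large set of interferon-stimulated genes. Among the products are proteins that block viral RNA or translation, GTPases that attack pathogen compartments, and the class I machinery that displays peptides to T cells. Skeletal muscle fibres normally carry little class I protein on their surface, and in inflammatory muscle disease both class I and interferon-stimulated genes are raised.

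RNA was measured by poly(A)-selected RNA-seq and given as CPM, the reads on a gene scaled to a total that is the same for every library. Libraries held between 16616917 and 22120641 reads, and 3 reads, used as the lowest level distinguishable from 0, correspond to 0.136 to 0.181 CPM. This limit reflects counting error alone, since PCR copies of a molecule are counted separately. Control replicate 4, the deepest library, stood apart. It had 14014 genes above 0, where the others had 16144 to 16984. It had 359 genes at 1 to 5 reads, where the others had 2670 to 3181. A 0 in that library may therefore not limit the level of a gene to 3 reads. Values without control replicate 4 are given where it decides a result. Markers of myotubes were present in every library, at a summed level of 18071 to 21508 CPM in control and 12222 to 19087 CPM in EPS, and 2 of 11 (Myod1 and Mybph; without control replicate 4 only Myod1) were lower in EPS at an unadjusted P under 0.05. Markers of proliferating cells summed to 307 to 395 CPM in control and 431 to 1228 CPM in EPS, and 6 of 9 were higher at that threshold (3 of 9 without control replicate 4). Of all genes, 8.4% were higher and 3.21% lower at that threshold (7.37% and 3.87% without that library). Markers of macrophages and other leukocytes summed to 1.75 to 2.77 CPM in control and 2.09 to 3.19 CPM in EPS. Of 11 such markers, Emr1 (F4/80) and Cd3e had no read in any library, and of the 9 tested 1 was higher at that threshold (11.1%, near the share of all genes) and 0 were lower. This was Csf1r, a macrophage receptor, with 2, 3 and 0 reads in control and 8, 6, 5 and 13 in EPS. Leaving out control replicate 4 ended that call, and Cd68 was then higher and Itgam lower at that threshold. The part of these markers in the differences was not tested. The part of the shift in proliferation markers in the differences described here was not tested. In bulk RNA, fewer cells of a type and less RNA per cell cannot be told apart.

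Differences are given as EPS minus control on log2(CPM + 1), from limma fitted to all 19144 genes, with the standard error (SE). On this scale the pseudocount of 1 CPM understates the change of low genes. With both an unadjusted P under 0.01 and a fold change above 2 required, 1 of the 37 members tested was higher in EPS (2.7%), where 0.966% of all genes were, and this gene was Isg20. At the same thresholds 0 members were lower, where 0.439% of all genes were. With the limma p-values adjusted by Benjamini-Hochberg over all genes, 0 members had an adjusted p under 0.05 (0.141% of all genes did). By unadjusted P under 0.05, limma placed 9 members higher and 0 lower. The edgeR quasi-likelihood test on recovered reads also gave 0 members at an adjusted p under 0.05. DESeq2 gave 1, Isg20, with an adjusted p of 0.0295. The share of all genes at that adjusted threshold was not taken for edgeR or DESeq2.

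The 9 members higher at an unadjusted P under 0.05 were the sensor Dhx58, the STAT partner Nmi and its own partner Ifi35, the effectors Isg20, Ifit2 and Ifit3, and the GTPases Gbp2, Gbp3 and Gbp7. They make up 24.3% of the members tested, against 8.4% of all genes. None was lower, against 3.21% of all genes. The count was lower in most other fits: 3 in edgeR (where 5.6% of all genes were higher at that threshold), 4 in DESeq2 (5.19%), 4 with replicate number as a block (6.23%), 5 after median-of-ratios scaling (6.08%) and 7 after quantile normalization (5.74%). With 1 library left out at a time, between 5 and 10 members were higher. Only without control replicate 1 were any lower (Irf5 and Irgm1). In these leave-out fits the share of all genes was taken only without control replicate 4 (7.37% higher and 3.87% lower, with 6 and 0 members). Of the 7 such fits, P stayed under 0.05 in 7 for Dhx58, Isg20 and Gbp3, in 6 for Nmi, in 5 for Ifit2 and Gbp7, in 3 for Ifi35 and Gbp2 and in 2 for Ifit3. Every EPS library lay above every control library in 8 members (21.6%), against 7.76% of all genes, namely Dhx58, Ifi35, Isg20, Ifit2, Ifit3, Gbp2, Gbp3 and Igtp. The reverse held for 0 members, against 2.85% of all genes. The list was made with earlier results of these data known, and the paper lists Gbp3 and Nmi among genes up-regulated by EPS. These shares of members are therefore description and no test of the list. By group, 1 of 4 sensors, 2 of 9 transcription factors and partners, 3 of 13 effectors, 3 of 5 GTPases and 0 of 6 antigen presentation genes were higher at an unadjusted P under 0.05.

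Across the 37 members the log2 fold changes ran from -0.33 to 1.16, with 25 above 0 (67.6%) and 12 below, while 63.3% of all genes tested were above 0. Their median was 0.14, against 0.041 over all genes tested. With only genes of a mean of at least 1 CPM kept, the medians were 0.19 for members and 0.10 for all genes. Without Mx1 and Usp18, which had 3 reads or fewer in every control library, 23 of the other 35 were above 0 and their median was 0.18. The scaling of the libraries moved these values. The median of all genes with a mean of at least 1 CPM was 0.10 as deposited, 0.0052 when the libraries were quantile-normalized and -0.0048 when they were scaled by the median of ratios. The median of all 37 members was 0.061 and 0.075 under the latter scalings, with 21 and 23 members above 0. Over all genes tested the median was then -0.0043 and 0.016.

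**Figure D1:**
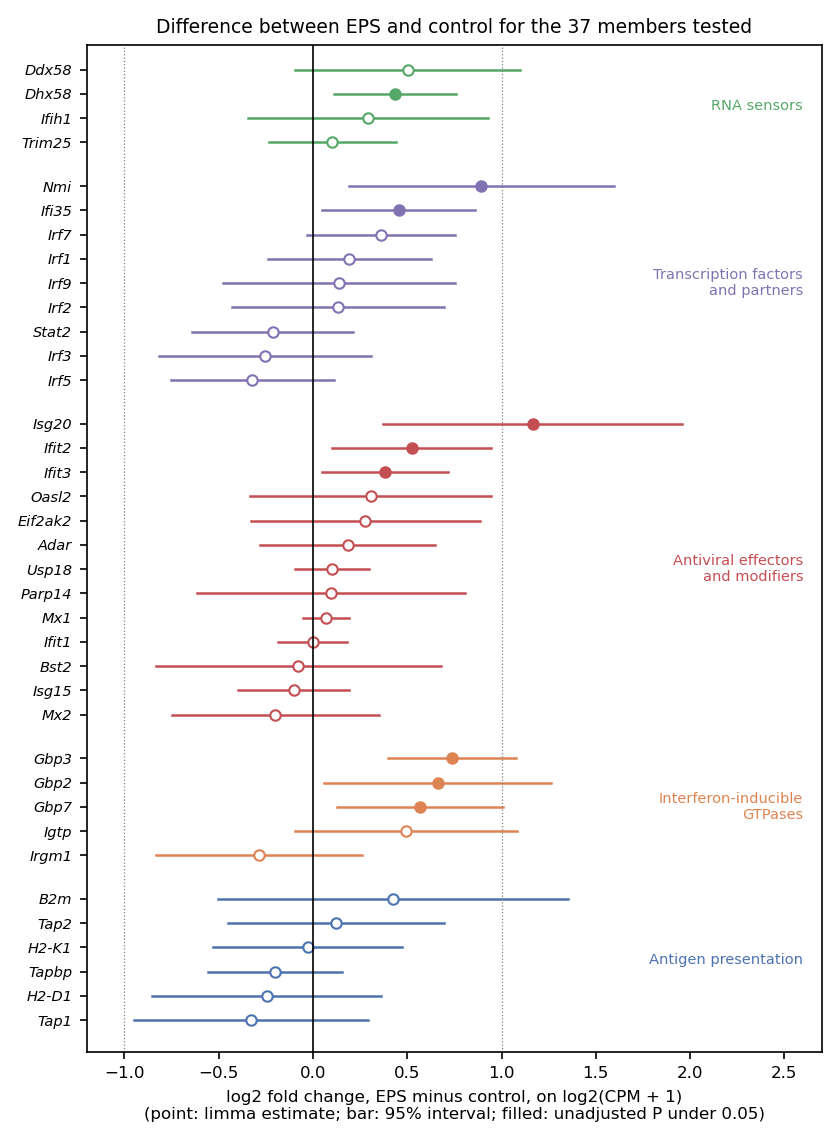
Log2 fold change (EPS minus control, on log2(CPM + 1)) of the 37 members tested, grouped by role, with limma's 95% interval as a bar and a filled point where the unadjusted P was under 0.05. The 9 filled points all lie to the right of 0, Isg20 is farthest right at 1.16, and the antigen presentation genes have no filled point. Mx1 and Usp18 rest on too few reads to be read as folds.

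The DNA just before the genes helps a reader see how the members relate to the pathway. A pair of short elements is typical of interferon-stimulated genes: the interferon-stimulated response element (ISRE), read by IRFs and by the complex of STATs with Irf9, and the gamma-activated site (GAS), read by STAT dimers. RefSeq promoter windows of GRCm38.p6, 250 bases before to 50 bases after a start, were available for 33 of the 39 members. They were searched on both strands for the ISRE core, GAAA followed by GAAA with 2 bases of any kind between, and for the GAS core, TTCNNNGAA, where N is any base. Overlapping matches count separately. The ISRE core was found in 17 of the 33 members (51.5%), against 3.99% of all genes with a window and 3.44% of all windows. The GAS core was found in 11 members (33.3%), against 9.55% of genes and 8.3% of windows. Such a match describes letters in the window and does not show that a factor binds there.

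The sequences below show the matches before the start of those members that were higher at an unadjusted P under 0.05. They are written in the direction of transcription, with the matched letters in capitals (an ISRE core on the other strand reads TTTC, 2 bases and TTTC). Isg20 and Ifit2 carried a GAS core and no ISRE core, at chr7:78913331-78913379 and chr19:34550444-34550481, plus strand. Ifit3 carried a pair of separate ISRE cores at chr19:34583353-34583436, plus strand. Gbp2, Gbp3 and Gbp7, neighbours on chromosome 3, each carried the ISRE core in a similar place, 10 to 79 bases before the start with flanks, at chr3:142620584-142620633, chr3:142559979-142560034 and chr3:142530263-142530312, plus strand. In Gbp3 a pair of matches overlaps, so the capitals run on. Gbp7 also held a pair of GAS cores at chr3:142530210-142530277.
Isg20: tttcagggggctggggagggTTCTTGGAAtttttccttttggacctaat
Ifit2: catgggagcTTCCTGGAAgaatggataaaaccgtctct
Ifit3: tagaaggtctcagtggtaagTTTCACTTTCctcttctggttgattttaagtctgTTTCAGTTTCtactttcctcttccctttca
Gbp2: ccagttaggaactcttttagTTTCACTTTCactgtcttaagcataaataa
Gbp3: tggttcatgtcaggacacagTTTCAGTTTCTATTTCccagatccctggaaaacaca
Gbp7, ISRE: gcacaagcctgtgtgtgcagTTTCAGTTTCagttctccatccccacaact
Gbp7, GAS: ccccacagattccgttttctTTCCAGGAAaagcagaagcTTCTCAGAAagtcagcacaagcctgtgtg

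For contrast, chosen after their values were seen, the ISRE cores of Isg15 and Ifit1, standard markers of an interferon response, and of B2m are shown too. They lie at chr4:156200855-156200916 (minus strand), chr19:34640765-34640833 and chr2:122147528-122147577 (plus strand). The Isg15 window holds 3 overlapping matches.
Isg15: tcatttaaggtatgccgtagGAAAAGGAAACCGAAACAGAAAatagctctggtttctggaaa
Ifit1: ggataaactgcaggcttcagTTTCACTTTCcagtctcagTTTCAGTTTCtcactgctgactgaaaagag
B2m: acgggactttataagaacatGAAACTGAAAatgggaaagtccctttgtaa
Among members with an ISRE core, 4 of the 15 tested were higher at an unadjusted P under 0.05 (Gbp2, Gbp3, Gbp7 and Ifit3), and among members with a window but no ISRE core, 4 of 16 were. For the GAS core the counts were 4 of 10 (Gbp7, Ifi35, Ifit2 and Isg20) and 4 of 21. Of all genes tested, 8.4% were higher at that threshold. The match in Ifi35 lies after the start and is not printed.

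The RNA sensors start the pathway. Dhx58 (LGP2), a helicase that tunes the other sensors, was at 0.408, 0.481 and 0 CPM in control replicates 1, 3 and 4 and at 0.652, 0.877, 0.594 and 0.797 CPM in EPS replicates 1 to 4. The groups did not overlap, although these levels rest on 15 control and 60 EPS reads. The log2 fold change of Dhx58 was 0.43 (SE 0.14, limma adjusted p = 0.277, exact permutation p = 0.0286, the smallest that 3 libraries against 4 can give). Without control replicate 4, which had no Dhx58 read, it was 0.26 with an unadjusted limma P of 0.0415. By edgeR on reads its log2 fold change was 1.23 with an unadjusted P of 0.142, and by DESeq2 it was 1.23 with an unadjusted P of 0.133.

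The other sensors did not pass P under 0.05. Ddx58 (RIG-I), which recognises the ends of viral RNA, was at 16.3, 23 and 10 CPM in control and at 22.2, 22.9, 20.6 and 24.5 CPM in EPS. Only control replicate 3 reached the EPS range, and the log2 fold change of 0.50 (SE 0.26) became 0.21 without control replicate 4. Ifih1 (MDA5), the sensor of long double-stranded RNA, was at 3.09, 3.37 and 1.18 CPM in control and at 3.44, 2.92, 3.01 and 3.24 CPM in EPS. Control replicate 4 was the lowest library, and the log2 fold change of 0.29 (SE 0.28) became -0.027 without it. Trim25, a ubiquitin ligase that activates RIG-I, was at 38.7, 41.1 and 32.2 CPM in control and at 41.6, 36.5, 41.6 and 40.1 CPM in EPS. Here too control replicate 4 was lowest, and the log2 fold change of 0.10 (SE 0.15) became 0.00074 without it.

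Among the transcription factors and their partners, Nmi and Ifi35 stood out, a pair of proteins that bind each other and, in the case of Nmi, STATs. Nmi was at 1.52, 2.65 and 0.904 CPM in control and at 4.42, 4.38, 2.19 and 4.78 CPM in EPS. Of the EPS libraries, replicates 1, 2 and 4 were above every control library and replicate 3 was below control replicate 3. The log2 fold change of Nmi was 0.89 (SE 0.31, limma adjusted p = 0.302, exact permutation p = 0.0857). It ranged from 0.67 without control replicate 4, where the unadjusted limma P was 0.0653, to 1.14 when other libraries were left out. By edgeR on reads the log2 fold change of Nmi was 1.13 with an unadjusted P of 0.0124. By DESeq2 it was 1.12 with an unadjusted P of 0.00908, past both thresholds.

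Ifi35 was at 13.6, 16.4 and 15.2 CPM in control and at 20.3, 23, 18.3 and 22.6 CPM in EPS. No control library reached the lowest EPS library, and spread within the groups was small (SD 1.4 and 2.2 CPM, n = 3 and 4). Its log2 fold change was 0.45 (SE 0.18, limma adjusted p = 0.37, exact permutation p = 0.0571). Under the other scalings it was 0.32 and 0.35, and its P was no longer under 0.05. Ifi35 shares exon bases with a gene on the other strand, as do Dhx58 and Gbp2.

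The IRFs and Stat2 showed no common direction. Irf7, the IRF that amplifies the interferon loop and is itself strongly interferon-stimulated, was at 1.28, 1.2 and 0.678 CPM in control and at 1.72, 1.27, 1.64 and 1.86 CPM in EPS (log2 fold change 0.36, SE 0.17, exact permutation p = 0.0857, and 0.22 without control replicate 4). EPS replicate 2 lay within the control range. Irf1, an early target of interferon-gamma, was at 28.9, 36 and 45 CPM in control and at 38.2, 43.5, 36.3 and 48.5 CPM in EPS. Its log2 fold change of 0.19 (SE 0.19) became 0.35 without control replicate 4, and the groups then did not overlap, while without control replicate 1 it was 0.038. Irf2, which opposes Irf1, was at 23.9, 30.3 and 14.6 CPM in control and at 25.6, 26.6, 20.5 and 24.6 CPM in EPS. All EPS libraries of Irf2 lay inside the control range, and its log2 fold change of 0.13 (SE 0.25) became -0.15 without control replicate 4.

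Irf9 is the DNA-binding subunit of the complex that reads ISREs. It was at 6.35, 9.09 and 7.5 CPM in control and at 7.54, 12.6, 7.08 and 7.49 CPM in EPS. Only EPS replicate 2 exceeded the control range, and the log2 fold change of 0.14 (SE 0.27) became -0.036 without it. Stat2, the partner of Irf9, was at 37.3, 27.3 and 24 CPM in control and at 26.5, 25.7, 25.4 and 22.1 CPM in EPS. Control replicate 1 was its highest library, and the log2 fold change of -0.21 (SE 0.19) was -0.040 without that library and -0.35 without control replicate 4.

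Irf3 and Irf5, IRFs activated by the sensors, turned on 1 library. Irf3 was at 25.8, 23.7 and 47.2 CPM in control and at 25.6, 29.3, 22.2 and 25.8 CPM in EPS. Irf5 was at 0.233, 0.301 and 1.27 CPM in control and at 0.279, 0.244, 0.137 and 0.266 CPM in EPS. In both genes control replicate 4 was the highest library, and the other control libraries lay close to the EPS libraries, with control replicate 3 of Irf5 slightly above them. Irf3 differed by -0.25 (SE 0.25) on the log2 scale, which became 0.049 without control replicate 4, and Irf5 by -0.32 (SE 0.19), which became -0.042 without it.

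**Figure D2:**
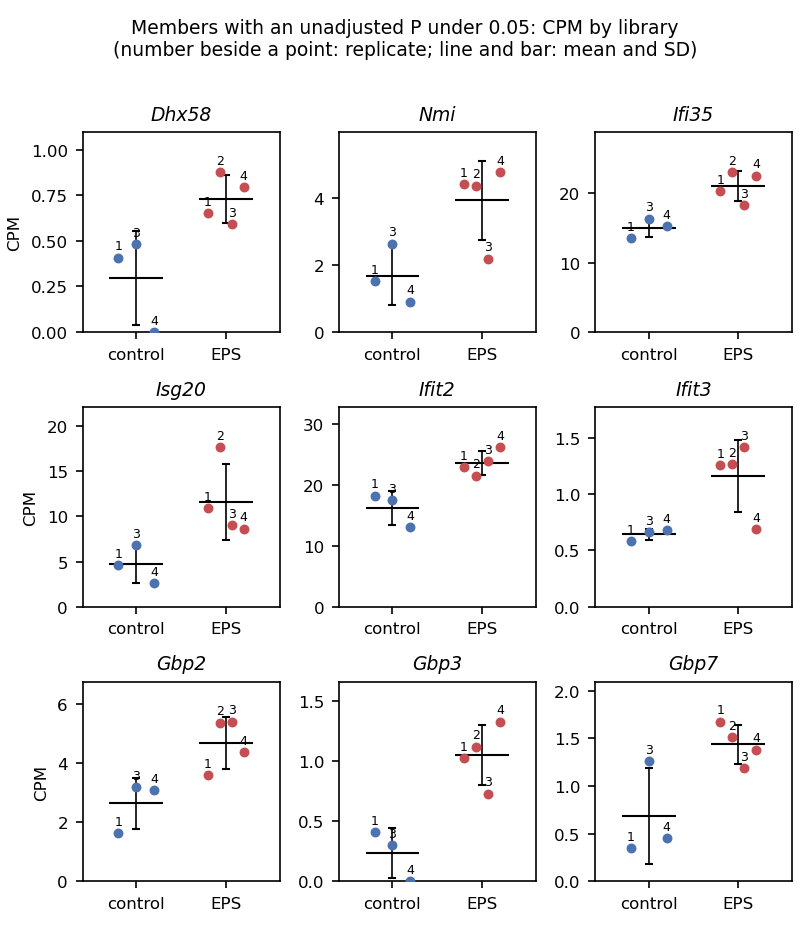
CPM of the 9 members with an unadjusted P under 0.05 in each of the 3 control and 4 EPS libraries, each panel on its own axis from 0, with the replicate number beside each point and the mean and SD of the group as a line and bar. The groups overlap only in Nmi, where EPS replicate 3 lies at 2.19 CPM, and in Gbp7, where control replicate 3 lies at 1.26 CPM.

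Among the antiviral effectors, Isg20 rose. Isg20 encodes an exonuclease that degrades RNA and is induced by both types of interferon. It was at 4.61, 6.8 and 2.62 CPM in control and at 10.9, 17.7, 9.04 and 8.66 CPM in EPS. The groups did not overlap, with EPS replicate 2 the highest and control replicate 4 the lowest. The means were 4.68 ± 2.09 CPM (SD, n = 3) and 11.6 ± 4.19 CPM (SD, n = 4), a ratio of 2.48. The log2 fold change was 1.16 (SE 0.35, unadjusted limma P = 0.00896, adjusted p = 0.233), and the exact permutation p was 0.0286. Its P stayed under 0.05 in all 15 alternatives, with log2 fold changes from 0.88 to 1.43. The lowest value, 0.88 with an unadjusted limma P of 0.0277, was that without control replicate 4, and there Isg20 no longer passed the 2-fold threshold. The call at both thresholds also ended after quantile normalization and median-of-ratios scaling, with unadjusted limma P of 0.0134 and 0.0108, and with replicate number as a block, with a log2 fold change of 0.96 and an unadjusted limma P of 0.0255. With 1 library left out at a time, Isg20 passed both thresholds only without control replicate 3, where Nmi passed too, and without EPS replicate 3 Nmi passed in its place. The gene lies at chr7:78913424-78920396 on the plus strand in GENCODE M21, with no exon shared with another annotated gene.

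The Ifit genes encode proteins that bind viral RNA and hold back translation, and they lie side by side on chromosome 19. Ifit2 was at 18.2, 17.5 and 13.1 CPM in control and at 22.9, 21.5, 23.9 and 26.2 CPM in EPS. Ifit3 was at 0.583, 0.662 and 0.678 CPM in control and at 1.26, 1.27, 1.42 and 0.69 CPM in EPS. In both genes the groups did not overlap, but EPS replicate 4 of Ifit3, with 13 reads, was close to control replicate 4, with 15 reads in a deeper library.

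On the log2 scale EPS exceeded control by 0.52 for Ifit2 (SE 0.19, limma adjusted p = 0.315, exact permutation p = 0.0286) and 0.38 for Ifit3 (SE 0.15, limma adjusted p = 0.36, exact permutation p = 0.0571). Without control replicate 4 Ifit2 was at 0.38 with an unadjusted limma P of 0.0539. Under both other scalings, at 0.39 and 0.42, its P was no longer under 0.05. Ifit3 kept P under 0.05 in 3 of its 14 alternatives, with log2 fold changes from 0.32 to 0.75. Ifit1 was at 0.525, 0.421 and 0.542 CPM in control and at 0.419, 0.487, 0.594 and 0.478 CPM in EPS. Its groups overlapped throughout, with means of 0.496 and 0.494 CPM, a log2 fold change of -0.0020 and a 95% interval from -0.19 to 0.18. Reads shared between Ifit paralogs could be split in counting, so their values are uncertain to that extent.

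Isg15, the ubiquitin-like modifier that is among the most strongly induced genes of an interferon response, was at 0.408, 0.722 and 0.362 CPM in control and at 0.326, 0.341, 0.228 and 0.69 CPM in EPS. These levels rest on 27 control and 32 EPS reads. Isg15 differed by -0.10 on the log2 scale (SE 0.13, 95% interval -0.40 to 0.19). Usp18, the protease that removes Isg15 from proteins, had 1, 2 and 0 reads in the control libraries and 1, 3, 1 and 6 in the EPS libraries. Mx1, a GTPase that traps viral nucleocapsids, had 0, 1 and 0 reads in control and 3, 2, 1 and 0 in EPS. Oas1a, which makes the oligoadenylates that activate RNase L, and Rsad2 (viperin) had 0 reads in all 7 libraries. This allows a level of up to 0.137 to 0.181 CPM in the libraries other than control replicate 4. For Usp18, Mx1, Oas1a and Rsad2 no difference was detected, and one below that level could not be seen at this depth. The fitted values of Mx1 and Usp18, which enter the counts of direction and the plot of fold changes, depend on the pseudocount and are not read as folds.

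The remaining effectors showed wide overlap. Oasl2, a relative of the Oas enzymes, was at 1.11, 3.37 and 1.58 CPM in control and at 2.7, 1.9, 2.56 and 3.19 CPM in EPS. Control replicate 3 was above every EPS library, and the log2 fold change of 0.31 (SE 0.28) lay between 0.082 and 0.61 with 1 library left out. Eif2ak2 (PKR), a kinase that stops translation on double-stranded RNA, was at 36.5, 23.8 and 22.6 CPM in control and at 43.2, 21.4, 36.5 and 34.7 CPM in EPS. EPS replicate 2 was its lowest library, and the log2 fold change of 0.28 (SE 0.27) lay between 0.15 and 0.49 with 1 library left out.

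Adar, which edits adenosine to inosine in double-stranded RNA, was at 30.4, 29.1 and 18.4 CPM in control and at 31, 25.7, 28.6 and 31 CPM in EPS. Control replicate 4 was the lowest library, and the log2 fold change of 0.18 (SE 0.20) became -0.037 without it. Parp14, an ADP-ribosyltransferase, was at 8.92, 6.14 and 4.61 CPM in control and at 9.64, 4.48, 6.67 and 7.49 CPM in EPS. Its groups spanned nearly the same range, and the log2 fold change of 0.094 (SE 0.31) was -0.10 without control replicate 4 and -0.073 after quantile normalization.

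Bst2 (tetherin), which holds budding virus at the cell surface, was at 2.97, 2.23 and 6.96 CPM in control and at 2.75, 4.24, 3.52 and 3.35 CPM in EPS. Mx2 was at 0.117, 0.241 and 1.31 CPM in control and at 0.233, 0.585, 0.32 and 0.0531 CPM in EPS. As in Irf3 and Irf5, control replicate 4 was above all other libraries in both genes. The differences of -0.077 (SE 0.33) for Bst2 and -0.20 (SE 0.24) for Mx2 became 0.31 and 0.13 without it.

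The interferon-inducible GTPases included the lowest P of all members. Gbp3, a guanylate-binding protein, was at 0.408, 0.301 and 0 CPM in control and at 1.02, 1.12, 0.731 and 1.33 CPM in EPS. All EPS libraries were above all control libraries, on 12 control and 86 EPS reads. The log2 fold change was 0.74 (SE 0.15, unadjusted limma P = 0.000841, adjusted p = 0.101, exact permutation p = 0.0286). The ratio of mean CPM was 4.45, larger than the log2 value because the pseudocount weighs heavily at this level. DESeq2 on reads gave a log2 fold change of 2.09 with an unadjusted P of 0.00622. Gbp3 passed both thresholds in DESeq2 and with a pseudocount of 0.1 or 0.5 CPM. Without control replicate 4, which had no Gbp3 read, the log2 fold change was 0.59 with an unadjusted limma P of 0.00285.

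Gbp2 was at 1.63, 3.19 and 3.07 CPM in control and at 3.58, 5.36, 5.39 and 4.35 CPM in EPS. Gbp7 was at 0.35, 1.26 and 0.452 CPM in control and at 1.68, 1.51, 1.19 and 1.38 CPM in EPS. The groups did not overlap in Gbp2, and in Gbp7 control replicate 3 was above EPS replicate 3. Their log2 fold changes were 0.66 (SE 0.27, limma adjusted p = 0.381, exact permutation p = 0.0571) and 0.57 (SE 0.19, limma adjusted p = 0.296, exact permutation p = 0.0571). Without control replicate 4 Gbp7 was at 0.48 with an unadjusted limma P of 0.0584. The Gbp genes are close relatives in 1 cluster, Gbp7 shares exon bases with a same-strand gene model, and reads could be divided between them in counting.

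Igtp and Irgm1 belong to the immunity-related GTPases, which act on vacuoles of intracellular pathogens. Igtp was at 2.39, 2.53 and 1.13 CPM in control and at 2.61, 4.14, 2.65 and 3.35 CPM in EPS. The groups did not overlap, though EPS replicate 1 was just above control replicate 3, and the log2 fold change was 0.49 (SE 0.26, exact permutation p = 0.0857). It was 0.26 without control replicate 4, the lowest library. Irgm1 was at 25.8, 46.3 and 45.5 CPM in control and at 29.4, 35.2, 24.7 and 35.6 CPM in EPS. Control replicates 3 and 4 were above every EPS library and replicate 1 was not. The log2 fold change of -0.29 (SE 0.24) lay between -0.56, without control replicate 1, and -0.15, without control replicate 3.

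**Figure D3:**
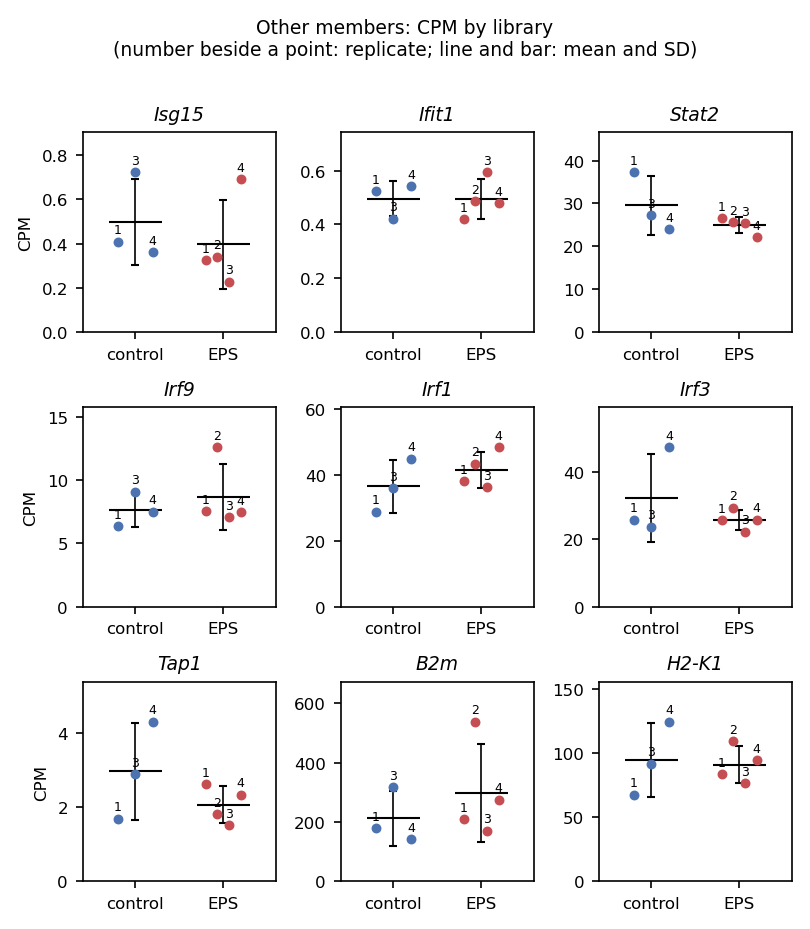
CPM of 9 further members in each of the 3 control and 4 EPS libraries, drawn as for the members with an unadjusted P under 0.05; this selection was made after the values were seen. Isg15 and Ifit1 stay between 0.228 and 0.722 CPM in both groups, Irf9 and B2m have 1 high EPS library (replicate 2), and Irf3 has 1 high control library (replicate 4).

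Class I molecules consist of a heavy chain, here H2-K1 and H2-D1, and the light chain B2m, and are loaded in the endoplasmic reticulum with peptides brought in by the transporter Tap1 and Tap2 and matched by tapasin (Tapbp). None of these 6 genes passed P under 0.05 in limma. B2m was at 179, 317 and 142 CPM in control and at 210, 538, 170 and 276 CPM in EPS. EPS replicate 2 was far above the rest and the other EPS libraries lay within the control range. The log2 fold change of B2m was 0.43 (SE 0.41, 95% interval -0.50 to 1.36). It became 0.095 without EPS replicate 2 and 0.18 without control replicate 4, the lowest library.

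H2-K1 was at 67.7, 91.9 and 125 CPM in control and at 83.5, 109, 76.5 and 94.5 CPM in EPS. H2-D1 was at 28.7, 31.4 and 64.5 CPM in control and at 31.5, 36.4, 32.1 and 30.4 CPM in EPS. Control replicate 4 was highest in both genes, and the EPS libraries lay inside the control range. On the log2 scale the differences of -0.028 (SE 0.22) and -0.25 (SE 0.27) became 0.19 and 0.11 without it. The reference genome is of another mouse strain than C2C12, heavy chain genes differ between strains, and they share sequence with each other, so reads could be lost or divided between them in counting.

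Tap1 was at 1.69, 2.89 and 4.29 CPM in control and at 2.61, 1.8, 1.51 and 2.34 CPM in EPS. Control replicate 4 was again the highest library, and the log2 fold change of -0.33 (SE 0.27) became -0.093 without it. Tap1 shares exon bases with Psmb9 on the other strand. Tap2 was at 9.85, 6.68 and 6.92 CPM in control and at 8.29, 6.58, 9.18 and 10.3 CPM in EPS. The groups spanned nearly the same range, with a log2 fold change of 0.12 (SE 0.25) that lay between 0.033 and 0.28 with 1 library left out. Tapbp was at 126, 122 and 170 CPM in control and at 111, 120, 131 and 119 CPM in EPS. Control replicate 4 was the highest library, and the log2 fold change of -0.20 (SE 0.16) became -0.053 without it.

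Levels can be compared between genes only per length of transcript, taken here as CPM per kb of annotated exon. On that scale B2m led the members at 247 CPM per kb in control and 347 in EPS. Tapbp followed at 38.5 in control, H2-K1 at 32.3 and H2-D1 at 16.1, and then Irf3 at 9.37, Irf1 at 9.21 and Ifi35 at 8.72. Isg20 went from 2.51 CPM per kb in control to 6.23 in EPS. At the low end, Isg15 was at 0.658 CPM per kb in control and Ifit1 at 0.187. Of the 39 members, 11 had a mean under 1 CPM over all libraries, among them Oas1a and Rsad2 at 0, and Isg15, Ifit1, Ifit3, Gbp3 and Dhx58.

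**Figure D4:**
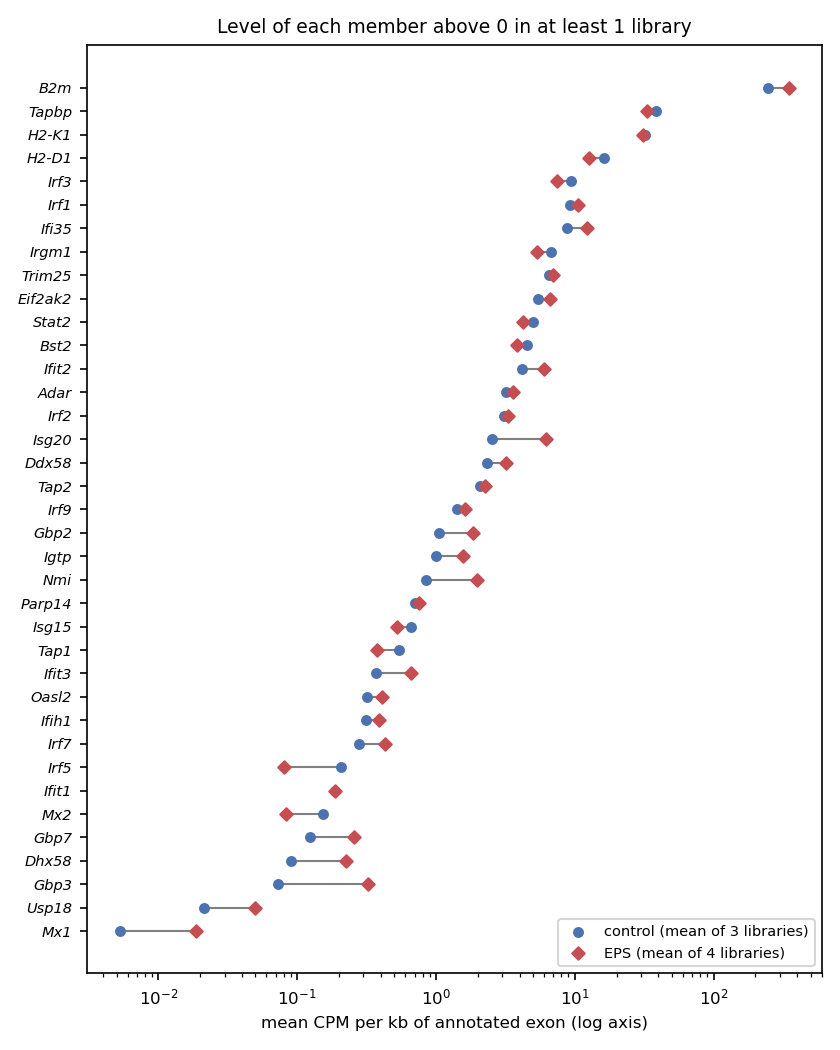
Mean CPM per kb of annotated exon in control (circles) and EPS (diamonds) for the 37 members above 0 in at least 1 library, on a log axis and in order of the control level. B2m is highest at 247 in control, the class I genes other than Tap1 and Tap2 hold the next places, and Gbp3, near the low end, has one of the longest bars. Mx1 and Usp18 rest on 3 reads or fewer in every control library.

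By library, control replicate 4 lay outside the range of the other 6 libraries in 22 of the 37 members (59.5%), against 44.6% of all genes. It was the highest library in 8 of them (Irf3, Irf5, Mx2, Bst2, Tap1, Tapbp, H2-K1 and H2-D1) and the lowest in 14, among them Isg20, Gbp3, Nmi, Ifit2 and Dhx58. Its part in the group difference can be read from the fit without it, in which 6 members were higher at an unadjusted P under 0.05 (Dhx58, Ifi35, Isg20, Ifit3, Gbp2 and Gbp3), where 7.37% of all genes were. In that fit 0 members were lower (3.87% of all genes were). None passed both thresholds, where 140 of all genes were higher and 69 lower. In that set of 6 libraries the EPS group lay above control without overlap in 9 of the 37 members, against 13.18% of all genes. These were Dhx58, Irf1, Ifi35, Isg20, Ifit2, Ifit3, Gbp2, Gbp3 and Igtp. The EPS group lay below control without overlap in 1 of the 37, Stat2, against 6.548% of all genes. EPS replicate 2 was the highest library in B2m, Irf9, Isg20, Dhx58, Ifi35 and Igtp. Summed over the 39 members, levels were 746 to 932 CPM in control and 768 to 1189 CPM in EPS.

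**Figure D5:**
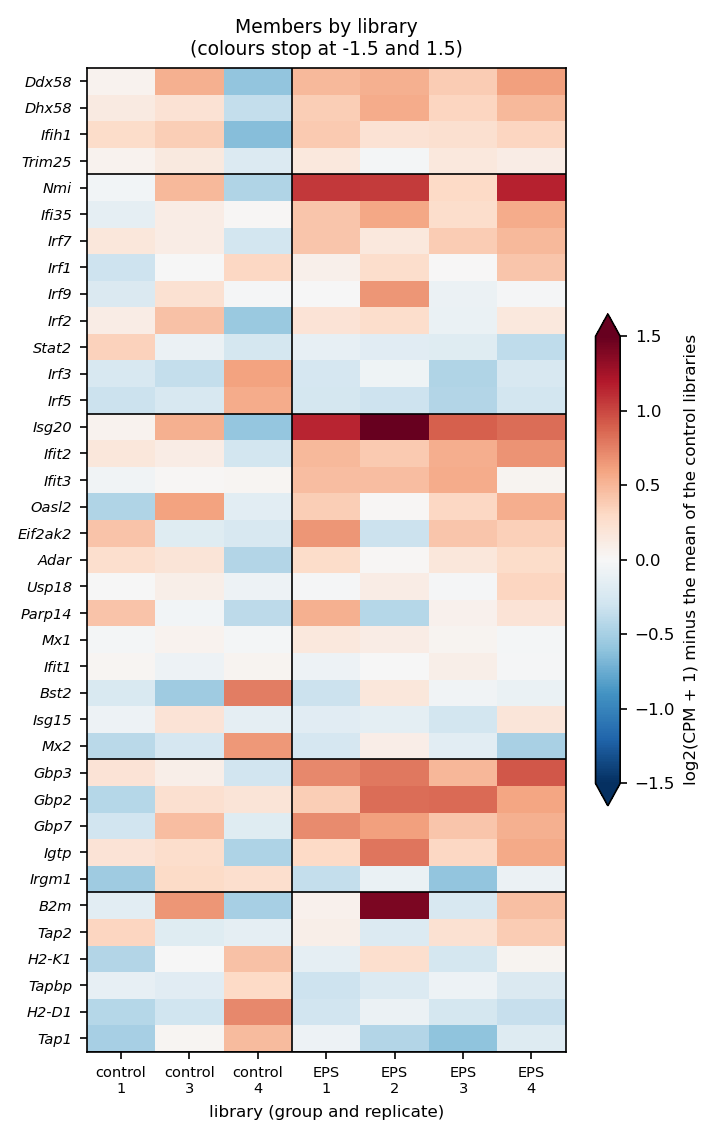
Log2(CPM + 1) of each of the 37 members tested in each library, minus the mean of the control libraries, grouped by role, with red above and blue below that mean and colours limited to -1.5 and 1.5. Isg20, Nmi and the Gbp rows are red across the EPS columns, while Irf3, Irf5, Bst2, Mx2 and H2-D1 are reddest in control replicate 4.

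Other genes of the pathway were read from lists of ligands, receptors, sensors, further interferon-stimulated genes and further antigen presentation genes. Of 21 interferon genes, 17 were listed, 13 had no read in any library and 4 were tested. The 2 with the lowest P, Ifna13 and Ifne, had at most 3 reads in a library, so no fold is given. Of 12 receptors and proximal signalling genes tested, 1 was higher (8.33%, against 8.4% of all genes) and 0 were lower at an unadjusted P under 0.05. This was Jak2, a kinase of the interferon-gamma receptor, at 52 to 62.2 CPM in control and 68.9 to 79.1 CPM in EPS (log2 fold change 0.39, SE 0.13, limma adjusted p = 0.294). Next came Jak1, a kinase of both receptor types, at 142 to 190 CPM and 198 to 236 CPM over the respective groups (log2 fold change 0.35, SE 0.16, and 0.22 without control replicate 4).

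Of 14 further genes of nucleic acid sensing, 1 was higher (7.14%), the adaptor Mavs at 20.6 to 38.2 CPM in control and 37.4 to 44.1 CPM in EPS (log2 fold change 0.51, SE 0.21, limma adjusted p = 0.396). Without control replicate 4, the lowest library, Mavs was at 0.28 with an unadjusted limma P of 0.13. The next lowest P was that of the kinase Ikbke, at 6.59 to 9.18 CPM and 4.38 to 6 CPM (-0.46, SE 0.24). Of 51 other interferon-stimulated genes tested, 5 were higher at an unadjusted P under 0.05 (9.8%, against 8.4% of all genes) and 3 were lower (5.88%, against 3.21%), and 0 passed both thresholds in limma. The 5 higher were Xaf1, Ifitm1, Slfn5, Tdrd7 and Pml. Ifitm1 had the largest log2 fold change of the 51, at 1.28 (SE 0.45, limma adjusted p = 0.308). Leaving out control replicate 4 ended the call of Pml. The 2 lowest P belonged to genes that were lower in EPS. Tor3a, an ATPase of the torsin family, was at 109 to 116 CPM in control and 66.6 to 85.9 CPM in EPS (log2 fold change -0.58, SE 0.14, limma adjusted p = 0.152), and the groups did not overlap. Tgtp1, an immunity-related GTPase, had 1, 5 and 13 reads in the control libraries and 0 in every EPS library, at least 2.17-fold lower when EPS is set at 3 reads per library. The bound is 1.23-fold without control replicate 4, which held most of these reads. Reads of its close paralog Tgtp2, which had 0, 28 and 13 reads in control and 16, 9, 5 and 9 in EPS, could be divided between the genes in counting, so the bound is uncertain.

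Of 28 further antigen processing and presentation genes tested, 4 were higher (14.3%, against 8.4% of all genes) and 0 lower (against 3.21%) at an unadjusted P under 0.05. Nlrc5, the transactivator of class I genes, was at 0.583, 0.602 and 0 CPM in control and at 0.931, 1.02, 1.23 and 0.903 CPM in EPS, with control replicate 4 the library without a read. Its log2 fold change was 0.57 (SE 0.17, limma adjusted p = 0.238), and 0.34 without that library. The ratio of mean CPM was 2.59, larger than on the log2(CPM + 1) scale. Psmb10, a subunit of the immunoproteasome, was at 9.4 to 10.6 CPM in control and 12.5 to 16.8 CPM in EPS (log2 fold change 0.57, SE 0.20, limma adjusted p = 0.313). The groups did not overlap in either gene, and neither passed the 2-fold threshold on the log2(CPM + 1) scale.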

How the data were processed

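Poly(A) RNA of 3 control and 4 EPS libraries was sequenced by the authors from directional libraries as paired ends. The submitters' processing notes name STAR 2.5.4b and GRCm38. The read counter, annotation and strand setting are not given in the sources used here, so reads of overlapping genes on either strand may be mixed. Of the 39 members, 13 share exon bases with a gene on the other strand. With a gene on the same strand 5 do, Gbp7 and Igtp among them. Values were deposited by the authors as CPM for each gene in each library. The methods name log2 values and quantile normalization, which the deposited values do not show.

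The members and lists were chosen with earlier results of these data known. log2(CPM + 1) of the 19144 genes above 0 in at least 1 library was fitted with limma 3.58.1 in R 4.3.3 (empirical Bayes, mean-variance trend), with Benjamini-Hochberg adjustment over all genes. P-values are two-sided. Single members were also compared by an exact permutation test of mean CPM over all 35 splits. The CPM were whole multiples of 1 read in 100% of values within 0.02 reads. On these recovered reads, edgeR 4.0.16 (quasi-likelihood test, TMM) placed 329 genes higher and 300 lower past both thresholds, against 185 and 84 in limma, and DESeq2 1.42.0 placed 317 and 268. In reads simulated for the comparison of EPS with control, 200 of 18626 genes were changed by 2 on the log2 scale. These 200 were drawn from genes with a mean of at least 1 CPM. Of them limma recovered 189 and called 8 unchanged genes, edgeR 199 and 85, and DESeq2 197 and 51. Smaller changes and changes in genes under 1 CPM were not simulated, so their recovery is not known.

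All members are named and given by library, though the rule asked for ranges where P was 0.05 or above, groups overlapped and no single library decided the value. Of other lists, genes past both thresholds are named, or else the 2 with the lowest P. Among the other interferon-stimulated genes, those higher at an unadjusted P under 0.05 are named too. Markers are named by exception. Coordinates are those of GENCODE M21 and promoter windows those of RefSeq (GRCm38.p6). Depth is that of the recovered reads, 16616917 to 22120641 per library.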

Additional observations from a re-analysis of the deposited data

Results flagged for a closer look

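In groups of 4 libraries, the highest or lowest library was compared with the rest by Dixon's ratio, which was possible for the EPS group of the 37 members. Chance flags about 1 in 20 such groups. In 2 members a library stood apart. Irf9 was at 12.6 CPM in EPS replicate 2, against 7.08 to 7.54 CPM in the other EPS libraries. Nmi was at 2.19 CPM in EPS replicate 3, against 4.38 to 4.78 CPM in the others.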

How the results depend on the processing

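In 15 alternatives, no member was lower past both thresholds and the members' median log2 fold change stayed above 0 (0.061 to 0.21). The count of members higher past both thresholds was 1 on the main scale, where 185 of all 19144 genes were. It was 2, Isg20 and Gbp3, with a pseudocount of 0.1 or 0.5 CPM (445 and 255 of all genes). It was 3, Isg20, Gbp3 and Nmi, in DESeq2 (317 of all genes). It was 0 after quantile normalization (130 of all genes), after median-of-ratios scaling (134) and with the replicate block (174). It was also 0 with a P threshold of 0.001, where all genes were not counted. When 1 library was left out it was between 0 and 2, with 140 to 232 of all genes. Members with an adjusted p under 0.05 numbered 1 in DESeq2 and 0 elsewhere. The share of all genes at that adjusted threshold was taken only in the main fit (0.141%). Isg20 and Gbp3 kept P under 0.05 in every alternative that tested them. The paired fit rests on 3 pairs. Deviations of same-numbered libraries correlated at 0.22, -0.41 and 0.065 for replicates 1, 3 and 4. These values are too few to decide whether the numbers pair the libraries, and nothing states that they do.

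Of the members' log2 fold changes, 29 values of 14 genes changed sign, none of them past a threshold. After quantile normalization Trim25 was at -0.0069, Irf9 at -0.0027, Parp14 at -0.073 and Tap2 at -0.022. After median-of-ratios scaling Trim25 was at -0.0091 and Parp14 at -0.0021, in DESeq2 Trim25 was at -0.0090 and Irf2 at -0.026, in edgeR Irf2 was at -0.013, and with the replicate block Irf9 was at -0.036. With 1 library left out, the ranges were Ifih1 -0.027 to 0.48, Irf2 -0.15 to 0.35, Irf3 -0.43 to 0.049, Irf9 -0.036 to 0.26, Isg15 -0.20 to 0.0015, Ifit1 -0.039 to 0.023, Mx2 -0.40 to 0.13, Bst2 -0.34 to 0.31, Parp14 -0.10 to 0.31, Adar -0.037 to 0.31, H2-K1 -0.25 to 0.19 and H2-D1 -0.46 to 0.11. The cause was not tested. Depth limits members under 1 CPM, where 1 read is a large share of the level.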
